A study of Mus musculus with 6 samples.

Results

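The genes described here are 10 feedback inhibitors of mitogen-activated protein (MAP) kinase signalling: the dual-specificity phosphatases Dusp1, Dusp2, Dusp4, Dusp5, Dusp6 and Dusp10, the Sprouty genes Spry1 and Spry2, and the Spred genes Spred1 and Spred2. They were chosen by name, with earlier results of these data known. All 10 were measured among the 19938 genes with a probe set that named only 1 symbol. For each gene the probe set with the highest mean over the 6 arrays was used. In the series, BDC2.5 CD4 T cells were transferred into NOD mice, and gene expression was measured in the transferred cells by Affymetrix array. Mice were injected with 100 ng of an antibody against DCIR2 that carried the BDC antigen (anti-DCIR2-BDC), with 100 ng of an antibody against DEC205 that carried it (anti-DEC205-BDC), or with PBS. All mice were NOD females aged 7 weeks, and the cells were sorted from the spleen as Thy1.1+CD4+ cells 14 h after the injection. NOD mice develop autoimmune diabetes, BDC2.5 is a T cell receptor for a pancreatic beta cell antigen, and DCIR2 and DEC205 mark different types of dendritic cell. There were 3 groups with 2 arrays apiece, which the labels call biological replicates. No group received an antibody without the antigen, so effects of antigen and of antibody cannot be told apart, and the labels do not say how many mice gave each array.

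When a T cell receptor binds antigen, Ras activates the kinases Raf, MEK and ERK in turn, and parallel cascades activate JNK and p38. The active kinases carry phosphate on a threonine and a tyrosine of their activation loop, and dual-specificity phosphatases remove both. Sprouty and Spred proteins act further upstream and hold back the activation of Ras and Raf. Several of these inhibitors are themselves transcribed in response to MAP kinase activity, which makes them negative feedback genes.

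Values are log2 expression from robust multi-array averaging (RMA), so 1 unit is a 2-fold difference, and levels of different genes cannot be set against each other. Array medians lay between 5.43 and 5.56, and the 2 arrays of a group correlated at 0.974 to 0.982 over probe sets, which are not independent replicates. The sorted population was checked with lists of cell type markers. CD4 T cell markers averaged 9.43 and 9.66 in anti-DCIR2-BDC arrays, 9.93 and 9.98 in anti-DEC205-BDC arrays, and 10.08 and 10.28 in PBS arrays (mean log2 value of 10 genes). After anti-DCIR2-BDC 1 of the 10 rose (Zap70) and 7 fell (Cd3d, Cd3e, Cd3g, Cd4, Cd2, Cd28 and Trat1), and after anti-DEC205-BDC 1 rose (Zap70) and 1 fell (Trat1). Over all genes 17.9% were called after anti-DCIR2-BDC (limma adjusted p under 0.05), 10.1% upwards and 7.82% downwards. After anti-DEC205-BDC 8.84% were called, 5.32% upwards and 3.53% downwards. In bulk RNA, fewer T cells and less of a transcript per cell cannot be told apart. Marker lists of dendritic cells averaged 4.98 to 5.03 after anti-DCIR2-BDC, 5.10 to 5.15 after anti-DEC205-BDC and 5.12 to 5.33 after PBS, and those of macrophages 4.99 to 5.08 after anti-DCIR2-BDC, 5.05 to 5.10 after anti-DEC205-BDC and 5.23 to 5.29 after PBS. The B cell list averaged 5.02 to 5.23 after anti-DCIR2-BDC, 5.21 to 5.34 after anti-DEC205-BDC and 5.15 to 5.24 after PBS, with 0 of 6 genes past the threshold in either comparison (limma, 1 at an unadjusted p under 0.05 in each). Single calls among the other lists were falls of Ly75 and Pecam1 and a rise of Eomes after either antibody, and a fall of Cd14 after anti-DEC205-BDC, where Ly75 encodes DEC205 itself. After anti-DEC205-BDC the call of Ly75 was lost without any 1 of the 6 arrays (limma adjusted p = 0.0562 to 0.133), that of Pecam1 without any but PBS array 1 (0.0585 to 0.166), and that of Cd14 without any but anti-DEC205-BDC array 1 (0.0712 to 0.177). Zap70 was lost there without anti-DEC205-BDC array 2 (limma adjusted p = 0.0566), and Trat1 without that array (0.143) or PBS array 1 (0.154). After anti-DCIR2-BDC Cd4 was lost without PBS array 2 (limma adjusted p = 0.115) or anti-DCIR2-BDC array 1 (0.111), and Eomes without PBS array 2 (0.139) or either anti-DCIR2-BDC array (0.0506 and 0.177). The dendritic cell factor gene Zbtb46 lay between 5.76 and 6.13 over the 6 arrays, the B cell gene Ms4a1 between 3.80 and 4.23, Cd8a between 4.84 and 5.36, and the macrophage gene C1qa between 5.72 and 6.28, with no detection calls to set them against. The 4 natural killer cell markers averaged 4.84 and 4.79 after anti-DCIR2-BDC, 4.95 and 5.12 after anti-DEC205-BDC, and 4.67 and 4.44 after PBS, so that all antibody arrays lay above PBS. Eomes, the 1 of them called, rose by 1.06 after anti-DCIR2-BDC (limma adjusted p = 0.0198) and 1.64 after anti-DEC205-BDC (limma adjusted p = 0.00494). In a fit over all probe sets both calls of Eomes were lost (limma adjusted p = 0.102 and 0.0654). The median change of the 4 was 0.08 after anti-DCIR2-BDC and 0.21 after anti-DEC205-BDC, so the higher averages rested largely on Eomes. The part of these marker levels in the results below was not tested.

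Against PBS, the inhibitors split into genes that rose, genes that fell and genes with no call, in the same way after either antibody. Dusp4, Dusp5, Spry1 and Spred1 rose and Dusp1 and Dusp10 fell, so that 6 of 10 passed an adjusted p of 0.05 in each comparison (limma, Benjamini-Hochberg over all 19938 genes). Over all genes 17.9% passed after anti-DCIR2-BDC, 10.1% upwards and 7.82% downwards, and 8.84% after anti-DEC205-BDC, 5.32% upwards and 3.53% downwards. Most of the 10 were bright, with means at percentiles 70.4 to 97.5 of all genes, except Spred1 (49.5) and Spry2 (10.2). Without the dimmest 50% of genes, 3644 genes were called after anti-DCIR2-BDC and 2065 after anti-DEC205-BDC, with 5 of the listed genes in each. The share called was thus higher among brighter genes than over all genes. The median of the 10 changes was 0.10 after anti-DCIR2-BDC and 0.25 after anti-DEC205-BDC, against -0.05 and -0.03 over all genes. With rises and falls on either side, uncalled genes lay in the middle of the list. Without regard to sign the medians were 1.3 after anti-DCIR2-BDC and 0.86 after anti-DEC205-BDC. Over all genes, dim ones included, they were 0.20 and 0.17 in the same comparisons. The 10 were chosen with earlier results of these data known, so these counts and medians do not show that they stand out. The antibody and PBS arrays did not overlap in 8 of the 10 genes after either antibody, 5 higher and 3 lower. Over all genes this held for 55.3% after anti-DCIR2-BDC (23.4% higher, 31.9% lower) and 48.8% after anti-DEC205-BDC (22.2% higher, 26.5% lower). The 8 genes were not the same after both antibodies. Dusp6 lay lower after anti-DCIR2-BDC and higher after anti-DEC205-BDC. Spred2 was apart from PBS only after anti-DCIR2-BDC (higher), and Spry2 only after anti-DEC205-BDC (lower). The comparisons share the PBS arrays, so they are not independent of each other. With each array centred on its median, the median change of all genes after anti-DCIR2-BDC shifted by 0.11, and the calls over all genes split into 2394 up and 1173 down instead of 2008 up and 1560 down. For anti-DEC205-BDC the split was 1186 up and 498 down instead of 1060 and 703. The calls of the 10 genes did not change with this centring.

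**Figure D1:**
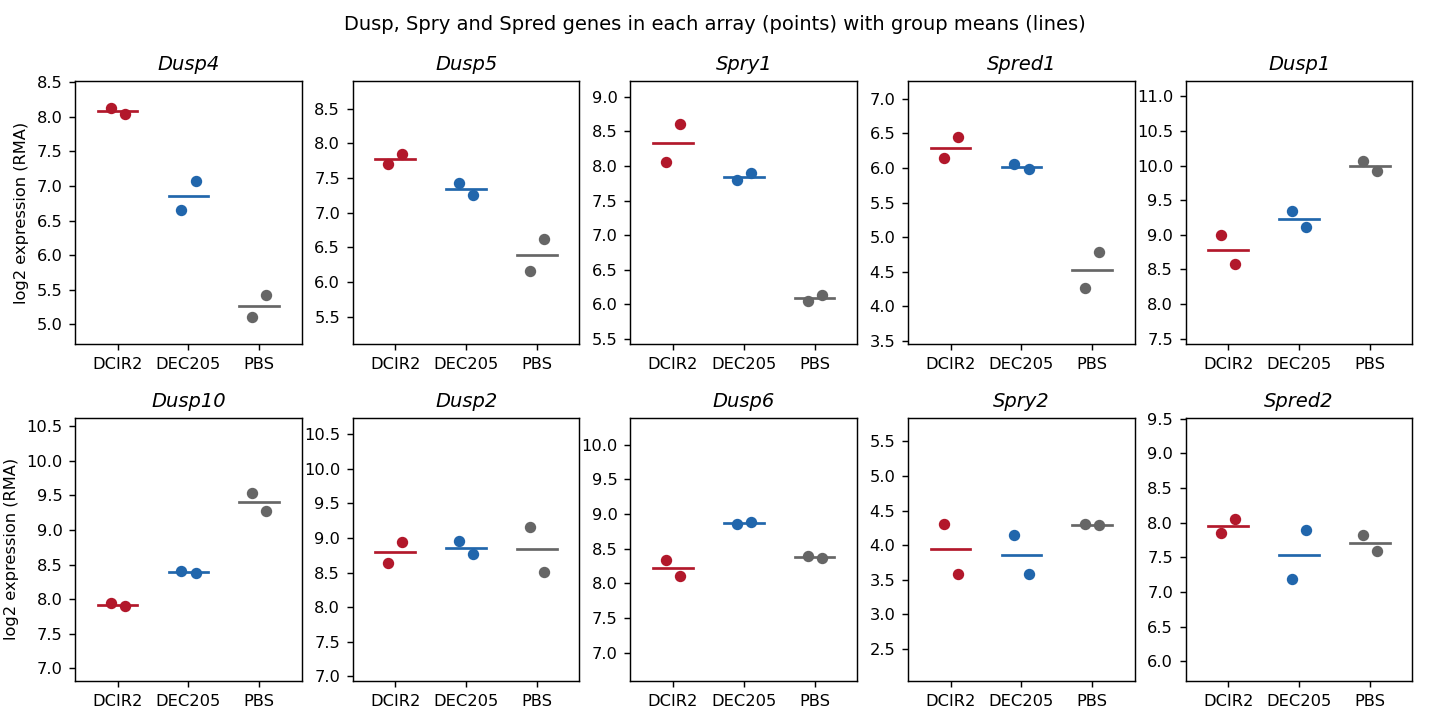
Log2 expression (vertical axis, RMA) of the 10 genes in each array (points) with group means (lines), for anti-DCIR2-BDC (DCIR2), anti-DEC205-BDC (DEC205) and PBS. Each panel spans the same number of log2 units. In the panels of Dusp4, Dusp5, Spry1 and Spred1 both antibody groups lie above PBS, and in those of Dusp1 and Dusp10 below it.

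Dusp4, a nuclear phosphatase of ERK and JNK, had the largest rise of the 10 after anti-DCIR2-BDC. It read 8.12 and 8.04 in anti-DCIR2-BDC arrays, 6.65 and 7.07 in anti-DEC205-BDC arrays, and 5.11 and 5.43 in PBS arrays. The 3 groups did not overlap, with anti-DCIR2-BDC on top and PBS at the bottom. The rise was 7.02-fold after anti-DCIR2-BDC (log2 change 2.81, standard error 0.21, limma adjusted p = 3.93e-05). After anti-DEC205-BDC it was 3.01-fold (log2 change 1.59, standard error 0.21, limma adjusted p = 0.00171). Both calls held under each of the 17 alternatives run.

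Dusp5, which acts in the nucleus on ERK and is itself an ERK target gene, rose less. Its values were 7.70 and 7.85 in anti-DCIR2-BDC arrays, 7.43 and 7.26 in anti-DEC205-BDC arrays, and 6.15 and 6.62 in PBS arrays. Again no group overlapped another, although the PBS arrays lay apart from each other. The change was 2.63-fold after anti-DCIR2-BDC (95% interval of the log2 change 0.92 to 1.86, limma adjusted p = 0.00114). After anti-DEC205-BDC it was 1.95-fold (0.49 to 1.43, limma adjusted p = 0.019). The second call was lost without PBS array 1 (limma adjusted p = 0.123), without anti-DEC205-BDC array 1 (0.0942), without anti-DEC205-BDC array 2 (0.0525), and in a fit over all probe sets (0.0925), range 0.00944 to 0.123 over the alternatives.

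Promoter windows of 9 of the 10 genes, from 250 bases before to 50 after the annotated start, were taken from RefSeq (GRCm38.p6) and searched on both strands for 5 motifs: an ETS site (CCGGAAG), AP-1 (TGANTCA), NFAT (GGAAAA), the cyclic AMP response element or CRE (TGACGTC), and the CArG box bound by serum response factor. The window of Dusp5 (chr19:53528895-53529194, plus strand) is shown because it held 2 CArG boxes end to end, printed in capitals:
Dusp5: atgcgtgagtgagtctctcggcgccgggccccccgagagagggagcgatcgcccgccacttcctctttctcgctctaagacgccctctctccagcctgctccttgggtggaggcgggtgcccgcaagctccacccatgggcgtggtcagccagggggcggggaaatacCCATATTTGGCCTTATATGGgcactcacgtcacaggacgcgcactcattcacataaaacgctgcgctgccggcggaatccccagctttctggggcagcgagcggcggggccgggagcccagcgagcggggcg
They began at positions -82 and -72 relative to the annotated start. A CArG box was found in 1 of the 9 windows, against 1.63% of all 32851 windows. The match describes the letters in the Dusp5 window and is not evidence that a factor was bound in these cells. The gene without a window was Dusp4, so its promoter was not searched. The windows of Spry1 and Spred1, which also rose, held no match to any of the 5 motifs.

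Spry1, the Sprouty gene that is induced by receptor signals in T cells, had the largest rise of the 10 after anti-DEC205-BDC. The arrays gave 8.05 and 8.60 after anti-DCIR2-BDC, 7.80 and 7.89 after anti-DEC205-BDC, and 6.05 and 6.14 after PBS. All 4 antibody arrays lay far above the PBS arrays, while the antibody groups lay close to each other. Its rise was 4.69-fold after anti-DCIR2-BDC (log2 change 2.23, standard error 0.22, limma adjusted p = 0.000108) and 3.37-fold after anti-DEC205-BDC (log2 change 1.75, standard error 0.22, limma adjusted p = 0.00138). Both held under each of the 17 alternatives.

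Spred1, whose protein recruits the Ras inactivator neurofibromin to the membrane, was the fourth gene to rise. It read 6.14 and 6.44 in anti-DCIR2-BDC arrays, 6.06 and 5.98 in anti-DEC205-BDC arrays, and 4.27 and 4.78 in PBS arrays. Antibody and PBS arrays were clearly apart, and the antibody groups differed by less than the PBS arrays did. The rise was 3.40-fold after anti-DCIR2-BDC (log2 change 1.76, standard error 0.20, limma adjusted p = 0.000206) and 2.82-fold after anti-DEC205-BDC (95% interval of the log2 change 1.06 to 1.93, limma adjusted p = 0.00171). Both held under the 16 alternatives that kept the gene; the filter that removed the 50% of genes with the lowest mean signal left it out.

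Of the other Sprouty and Spred genes neither was called. Spry2 read 4.30 and 3.58 in anti-DCIR2-BDC arrays, 4.14 and 3.58 in anti-DEC205-BDC arrays, and 4.30 and 4.29 in PBS arrays. Its probe set was dropped by both filters on dim values, and array 2 of each antibody group was its lowest. Its log2 change was -0.35 after anti-DCIR2-BDC (95% interval -0.86 to 0.16, limma adjusted p = 0.38) and -0.43 after anti-DEC205-BDC (-0.94 to 0.08, limma adjusted p = 0.336). Spred2 gave 7.85 and 8.05 after anti-DCIR2-BDC, 7.18 and 7.89 after anti-DEC205-BDC, and 7.82 and 7.59 after PBS. Array 1 of anti-DEC205-BDC stood below the other arrays. The change was 0.25 after anti-DCIR2-BDC (-0.30 to 0.79, limma adjusted p = 0.59) and -0.17 after anti-DEC205-BDC (-0.71 to 0.38, limma adjusted p = 0.781). Spred2 was the 1 gene of the 10 with 2 probe sets, and the dimmer one differed in sign after anti-DEC205-BDC. That probe set read 7.23 and 7.21 after anti-DCIR2-BDC, 7.12 and 7.01 after anti-DEC205-BDC, and 6.87 and 6.94 after PBS, a difference of 0.32 for anti-DCIR2-BDC and 0.16 for anti-DEC205-BDC.

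Dusp1 and Dusp10, whose proteins act mainly on the stress kinases p38 and JNK, fell. Dusp1, an immediate-early gene, read 8.99 and 8.58 in anti-DCIR2-BDC arrays, 9.34 and 9.11 in anti-DEC205-BDC arrays, and 10.06 and 9.92 in PBS arrays. The 3 groups did not overlap, and PBS was the highest. It fell by 1.21 on the log2 scale after anti-DCIR2-BDC (standard error 0.19, limma adjusted p = 0.00129) and by 0.77 after anti-DEC205-BDC (standard error 0.19, limma adjusted p = 0.0299). The second call was lost without any 1 of the PBS arrays (limma adjusted p = 0.146 without array 1 and 0.0728 without array 2), without any 1 of the anti-DEC205-BDC arrays (0.0581 and 0.168), and in a fit over all probe sets (0.115), range 0.0118 to 0.168 over the alternatives.

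The Dusp1 promoter window (chr17:26508423-26508722, minus strand, GRCm38.p6, RefSeq) is shown as that of an inhibitor that fell, read along the gene, with matches to the CRE in capitals:
Dusp1: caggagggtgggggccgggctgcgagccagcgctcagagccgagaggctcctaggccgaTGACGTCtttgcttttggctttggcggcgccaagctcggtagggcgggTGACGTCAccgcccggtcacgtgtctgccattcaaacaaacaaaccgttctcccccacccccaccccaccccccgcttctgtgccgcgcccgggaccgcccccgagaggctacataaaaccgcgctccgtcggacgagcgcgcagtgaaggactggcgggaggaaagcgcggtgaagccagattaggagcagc
The matches began at positions -191, -143 and -142 relative to the annotated start, and the last 2 overlap on opposite strands. The CRE was found in 2 of the 9 windows, those of Dusp1 and Spred2, against 3.21% of all windows. Spred2 had no call, and the window of Dusp10, the other gene that fell, held no match to any motif searched. As for Dusp5, the matches describe letters and are not evidence that a factor was bound. NFAT letters were found in 2 of the 9, Spry2 and Spred2, against 23.4%, and the ETS and AP-1 letters in 0 of the 9, against 8.86% and 7.81%.

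Dusp10 had the larger fall. Its arrays read 7.94 and 7.90 after anti-DCIR2-BDC, 8.40 and 8.38 after anti-DEC205-BDC, and 9.54 and 9.27 after PBS. Within each antibody group the arrays were nearly equal, and the groups did not overlap. The fall was 1.49 on the log2 scale after anti-DCIR2-BDC, a level 2.81-fold lower (log2 change -1.49, standard error 0.18, limma adjusted p = 0.000302). After anti-DEC205-BDC it was 2.02-fold lower (log2 change -1.01, standard error 0.18, limma adjusted p = 0.0069). That call was lost without PBS array 1 (limma adjusted p = 0.051), range 0.00213 to 0.051 over the alternatives.

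Dusp1 is also known to respond to tissue handling, and 11 other such genes were looked up beside it. After anti-DCIR2-BDC 2 rose, 5 fell and 4 had no call, and after anti-DEC205-BDC 1 rose, 3 fell and 7 had no call, where 17.9% and 8.84% of all genes were called. The transcription factor gene Jun read 8.81 and 8.33 after anti-DCIR2-BDC, 9.08 and 8.63 after anti-DEC205-BDC, and 10.15 and 10.03 after PBS (log2 change -1.52 after anti-DCIR2-BDC, limma adjusted p = 0.000725, and -1.24 after anti-DEC205-BDC, limma adjusted p = 0.00639, or 0.0643 in a fit over all probe sets). Btg2, an antiproliferative gene, was at -2.03 after anti-DCIR2-BDC (limma adjusted p = 0.000236) and -1.08 after anti-DEC205-BDC (0.0168), and Klf6 at -1.73 after anti-DCIR2-BDC (0.000332) and -1.10 after anti-DEC205-BDC (0.0102). The cytokine signalling inhibitor Socs3 fell after anti-DCIR2-BDC (-1.23, limma adjusted p = 0.0279), and Atf3 rose by 1.07 after anti-DCIR2-BDC (limma adjusted p = 0.00137) and 0.74 after anti-DEC205-BDC (limma adjusted p = 0.021). After anti-DEC205-BDC Klf6 was lost without PBS array 1 (limma adjusted p = 0.0585) or anti-DEC205-BDC array 2 (0.0574), and Btg2 without the same arrays (0.117 and 0.114). Atf3 was lost there without any 1 of the PBS or anti-DEC205-BDC arrays (limma adjusted p = 0.0516 to 0.116). Socs3 was lost without PBS array 1 (limma adjusted p = 0.186), anti-DCIR2-BDC array 1 (0.0768) or anti-DCIR2-BDC array 2 (0.214). Over the whole list the arrays averaged 7.95 and 7.57 after anti-DCIR2-BDC, 8.27 and 7.82 after anti-DEC205-BDC, and 8.52 and 8.08 after PBS. Array 1 was higher than array 2 in each group, as it was for Dusp1, and among the arrays of either number the order was the same, with PBS highest and anti-DCIR2-BDC lowest. The part of handling in the fall of Dusp1 was not tested.

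Dusp2 and Dusp6, the remaining phosphatases, had no call in any comparison. Dusp2, a nuclear phosphatase of activated lymphocytes, read 8.64 and 8.94 in anti-DCIR2-BDC arrays, 8.95 and 8.77 in anti-DEC205-BDC arrays, and 9.16 and 8.51 in PBS arrays. The groups overlapped throughout, and the PBS arrays enclosed all others. Its log2 change was -0.04 after anti-DCIR2-BDC (95% interval -0.56 to 0.47, limma adjusted p = 0.938) and 0.03 after anti-DEC205-BDC (-0.49 to 0.54, limma adjusted p = 0.971), and both signs turned with another scaling of the arrays. With 2 arrays a group, these intervals do not separate a small change of either sign from none.

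Dusp6, the ERK phosphatase of the cytoplasm, showed another order of the groups. It read 8.33 and 8.10 in anti-DCIR2-BDC arrays, 8.85 and 8.88 in anti-DEC205-BDC arrays, and 8.39 and 8.37 in PBS arrays. The anti-DEC205-BDC arrays lay above all others, and the anti-DCIR2-BDC arrays lay just below PBS. The change was -0.17 after anti-DCIR2-BDC (95% interval -0.56 to 0.23, limma adjusted p = 0.628) and 0.48 after anti-DEC205-BDC (0.09 to 0.88, limma adjusted p = 0.142), with 0 of 17 alternatives past the threshold in either.

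**Figure D2:**
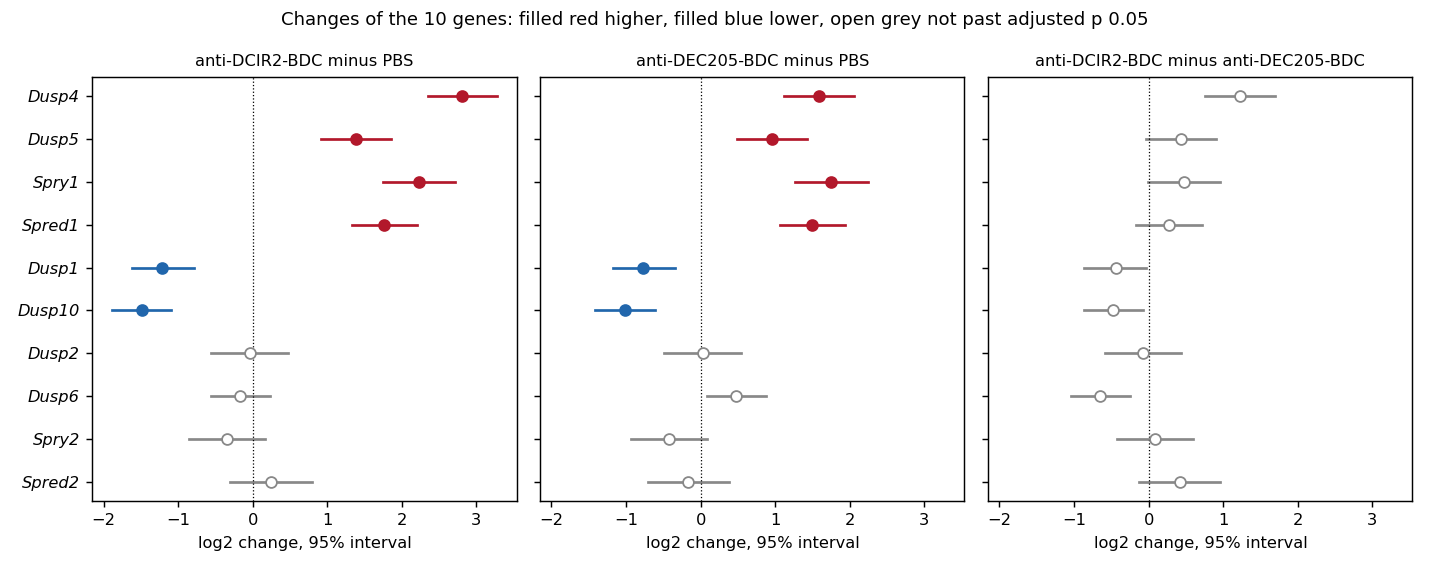
Log2 change (horizontal axis) of each gene with its 95% interval, for anti-DCIR2-BDC minus PBS, anti-DEC205-BDC minus PBS, and anti-DCIR2-BDC minus anti-DEC205-BDC. Filled red points rose, filled blue points fell and open grey points did not pass an adjusted p of 0.05. The same 6 genes are filled in the first and second panels and none in the third, where Dusp4 is farthest from 0 at 1.22.

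The antibody groups were also compared with each other; they differ in the antibody and in the receptor it targets, and which cells presented the antigen was not measured here. None of the 10 genes passed (limma, 0 calls), while over all genes 0.0201% passed. At an unadjusted p under 0.05 (limma) there were 4 of the 10, and 2036 of all 19938 genes. Dusp4 was 2.34-fold higher after anti-DCIR2-BDC (log2 change 1.22, 95% interval 0.76 to 1.69, limma adjusted p = 0.147, range 0.0682 to 0.544 over the alternatives). Dusp6 was at -0.65 (-1.04 to -0.25, limma adjusted p = 0.256), Dusp10 at -0.48 (-0.87 to -0.08, limma adjusted p = 0.415) and Dusp1 at -0.44 (-0.86 to -0.03, limma adjusted p = 0.464). Spry1, Dusp5 and Spred1 were at 0.48, 0.43 and 0.27, with intervals of -0.01 to 0.96, -0.04 to 0.90 and -0.17 to 0.71. In all 6 genes called against PBS the anti-DCIR2-BDC arrays lay beyond the anti-DEC205-BDC arrays on the side away from PBS. How many of all genes called against PBS had this order was not counted. Those calls numbered 3568 after anti-DCIR2-BDC and 1763 after anti-DEC205-BDC, so the order is not shown to be particular to these 6. The antibody groups did not overlap in 7 of the 10 genes, 4 higher and 3 lower, and over all genes in 40.2%, 19.3% higher and 20.9% lower.

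Across the 6 arrays the 6 called genes ran closely together or opposite, as a description of arrays that share 3 groups. Dusp5 and Spred1 correlated at r = 0.984, Spry1 and Spred1 at 0.982, and Dusp4 and Dusp5 at 0.957. Dusp1 and Dusp10 correlated at 0.969, and Dusp10 correlated at -0.989 with Dusp5 and at -0.985 with Dusp4. Dusp6 correlated weakly with each of the 6, between -0.16 and 0.138. The genes outside the list most like Dusp4 were Hdlbp, which encodes an RNA-binding protein of the endoplasmic reticulum, the translation initiation factor gene Eif3m and the chromatin assembly gene Chaf1a, each at r = 0.998. For Dusp10 they were the cytokine gene Il16 (0.998), the peroxisomal enzyme gene Crot (0.997) and the antiviral gene Samd9l (0.997). With 6 arrays in 3 groups such values are common: 838 genes exceeded 0.95 with Dusp4 and 480 with Dusp10.

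Other genes of the pathway were then described by list, against the same backgrounds of 17.9% and 8.84% of genes called. Among 14 further dual-specificity phosphatases 1 rose and 0 fell after either antibody, the 1 being Dusp12, an atypical member. Dusp12 read 6.89 and 7.26 after anti-DCIR2-BDC, 7.02 and 6.71 after anti-DEC205-BDC, and 5.97 and 6.18 after PBS. Its log2 change was 1.0 after anti-DCIR2-BDC (limma adjusted p = 0.00682) and 0.79 after anti-DEC205-BDC (limma adjusted p = 0.0419). With the mean of its probe sets it was 0.58 after anti-DCIR2-BDC (limma adjusted p = 0.0507) and 0.48 after anti-DEC205-BDC (limma adjusted p = 0.148). The call after anti-DCIR2-BDC was also lost without anti-DCIR2-BDC array 2 (limma adjusted p = 0.0797), and that after anti-DEC205-BDC without any 1 of the 6 arrays (0.0568 to 0.2). The share of this list called, 1 of 14, was thus no higher than over all genes.

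Among 16 other brakes of Ras and ERK 3 rose and 4 fell after anti-DCIR2-BDC, and 1 rose and 2 fell after anti-DEC205-BDC. Rasa3, which switches Ras and Rap proteins off, had the largest fall of the list. It read 7.02 and 7.65 after anti-DCIR2-BDC, 7.92 and 8.02 after anti-DEC205-BDC, and 9.60 and 9.78 after PBS. This was a log2 change of -2.36 after anti-DCIR2-BDC (limma adjusted p = 9.77e-05) and -1.72 after anti-DEC205-BDC (limma adjusted p = 0.0017). Rasal3, a Ras inactivator of lymphocytes, was at -1.25 after anti-DCIR2-BDC (limma adjusted p = 0.00031) and -0.87 after anti-DEC205-BDC (limma adjusted p = 0.00649). Pebp1, which encodes an inhibitor of Raf, rose by 1.24 after anti-DCIR2-BDC (limma adjusted p = 0.000626) and 0.96 after anti-DEC205-BDC (limma adjusted p = 0.0069). Rasa1 fell after anti-DCIR2-BDC (-0.83, limma adjusted p = 0.0131), a call lost without PBS array 2 (0.0624), anti-DCIR2-BDC array 1 (0.0897) or anti-DCIR2-BDC array 2 (0.0667). Nf1, which encodes neurofibromin, the partner of Spred1, rose after anti-DCIR2-BDC (0.68, limma adjusted p = 0.0245) and was at 0.56 after anti-DEC205-BDC (limma adjusted p = 0.094); it was singled out for that partnership. Spry4, a further Sprouty gene, was at 0.00 after anti-DCIR2-BDC (limma adjusted p = 0.996) and 0.05 after anti-DEC205-BDC (0.948) and was also singled out.

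Of 16 genes of the Ras-ERK cascade 11 were analysed here. After anti-DCIR2-BDC 1 rose and 1 fell, and after anti-DEC205-BDC 1 rose and 0 fell. Ksr1, a scaffold of the ERK cascade, read 8.25 and 8.48 after anti-DCIR2-BDC, 7.54 and 7.71 after anti-DEC205-BDC, and 6.30 and 6.20 after PBS. It rose 4.32-fold after anti-DCIR2-BDC (limma adjusted p = 7.6e-05) and 2.59-fold after anti-DEC205-BDC (limma adjusted p = 0.0022). Rasgrp1, the exchange factor that loads Ras in T cells, was 2.46-fold lower after anti-DCIR2-BDC (limma adjusted p = 0.00257) and was at -0.81 after anti-DEC205-BDC (limma adjusted p = 0.0544).

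The lists of the JNK and p38 cascades had 18 genes analysed, of which 3 rose and 5 fell after anti-DCIR2-BDC, and 3 rose and 2 fell after anti-DEC205-BDC. Map2k3, a kinase that activates p38, read 9.37 and 9.58 after anti-DCIR2-BDC, 8.38 and 8.52 after anti-DEC205-BDC, and 7.38 and 6.49 after PBS. It rose 5.81-fold after anti-DCIR2-BDC (limma adjusted p = 0.000152) and 2.85-fold after anti-DEC205-BDC (limma adjusted p = 0.00693). Gadd45b, a stress-inducible gene of this list, rose 4.95-fold after anti-DCIR2-BDC (limma adjusted p = 0.000534) and 3.27-fold after anti-DEC205-BDC (limma adjusted p = 0.00752). Mapkapk2, a kinase downstream of p38, rose 2.30-fold after anti-DCIR2-BDC (limma adjusted p = 0.00219) and 2.28-fold after anti-DEC205-BDC (0.00586). In a fit over all probe sets the calls after anti-DEC205-BDC were lost for Gadd45b (limma adjusted p = 0.0857), Map2k3 (0.0752) and Mapkapk2 (0.0536). Map2k6, another p38 activator, was at -1.13 after anti-DCIR2-BDC (limma adjusted p = 0.00798) and -1.09 after anti-DEC205-BDC (limma adjusted p = 0.0193). Its call after anti-DEC205-BDC was lost without PBS array 2 (limma adjusted p = 0.108) or anti-DEC205-BDC array 1 (0.113). Map3k1, a kinase upstream of JNK, fell by 1.17 on the log2 scale after anti-DCIR2-BDC (limma adjusted p = 0.00204) and by 0.75 after anti-DEC205-BDC (limma adjusted p = 0.0399).

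Of 19 genes that ERK is known to induce 5 rose and 2 fell after anti-DCIR2-BDC, and 6 rose and 0 fell after anti-DEC205-BDC. Myc, the growth regulator, read 12.14 and 12.19 after anti-DCIR2-BDC, 11.18 and 11.79 after anti-DEC205-BDC, and 8.86 and 9.99 after PBS (log2 change 2.74 after anti-DCIR2-BDC, limma adjusted p = 0.000189, and 2.06 after anti-DEC205-BDC, limma adjusted p = 0.0028, or 0.0613 in a fit over all probe sets). The AP-1 genes Fosl1 (1.85, limma adjusted p = 0.000468) and Fosl2 (1.25, limma adjusted p = 0.00103) rose after anti-DCIR2-BDC. After anti-DEC205-BDC Fosl1 was at 0.52 (limma adjusted p = 0.257) and Fosl2 rose by 0.81 (limma adjusted p = 0.0225). The 2 genes that fell after anti-DCIR2-BDC were the AP-1 genes Fos (-1.18, limma adjusted p = 0.0119) and Junb, named after their values were seen. Egr2, a transcription factor gene of T cell receptor signalling, rose by 1.18 after anti-DCIR2-BDC (limma adjusted p = 0.00136) and 1.61 after anti-DEC205-BDC (limma adjusted p = 0.000939). Egr3 rose after anti-DEC205-BDC (1.27, limma adjusted p = 0.0293), but was at 0.82 without PBS array 1 (0.168), and was lost too without anti-DEC205-BDC array 2 (0.161) or anti-DCIR2-BDC arrays 1 and 2 in turn (0.0524 and 0.0532). After anti-DCIR2-BDC Egr3 was at 0.73 (limma adjusted p = 0.147), with both arrays above both PBS arrays. The pseudokinase gene Trib1 rose by 1.20 after anti-DCIR2-BDC (limma adjusted p = 0.00674) and 0.93 after anti-DEC205-BDC (limma adjusted p = 0.0444); the first call was lost without anti-DCIR2-BDC array 2 (0.083), the second without any 1 of the PBS or anti-DEC205-BDC arrays (0.0557 to 0.211). Egr1, an immediate-early gene singled out as a standard readout of ERK, read 8.11 and 8.19 after anti-DCIR2-BDC, 8.56 and 8.63 after anti-DEC205-BDC, and 8.28 and 8.24 after PBS. Its groups stood in the same order as those of Dusp6, with no call against PBS (limma adjusted p = 0.768 after anti-DCIR2-BDC and 0.316 after anti-DEC205-BDC) or between antibodies (0.428).

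**Figure D3:**
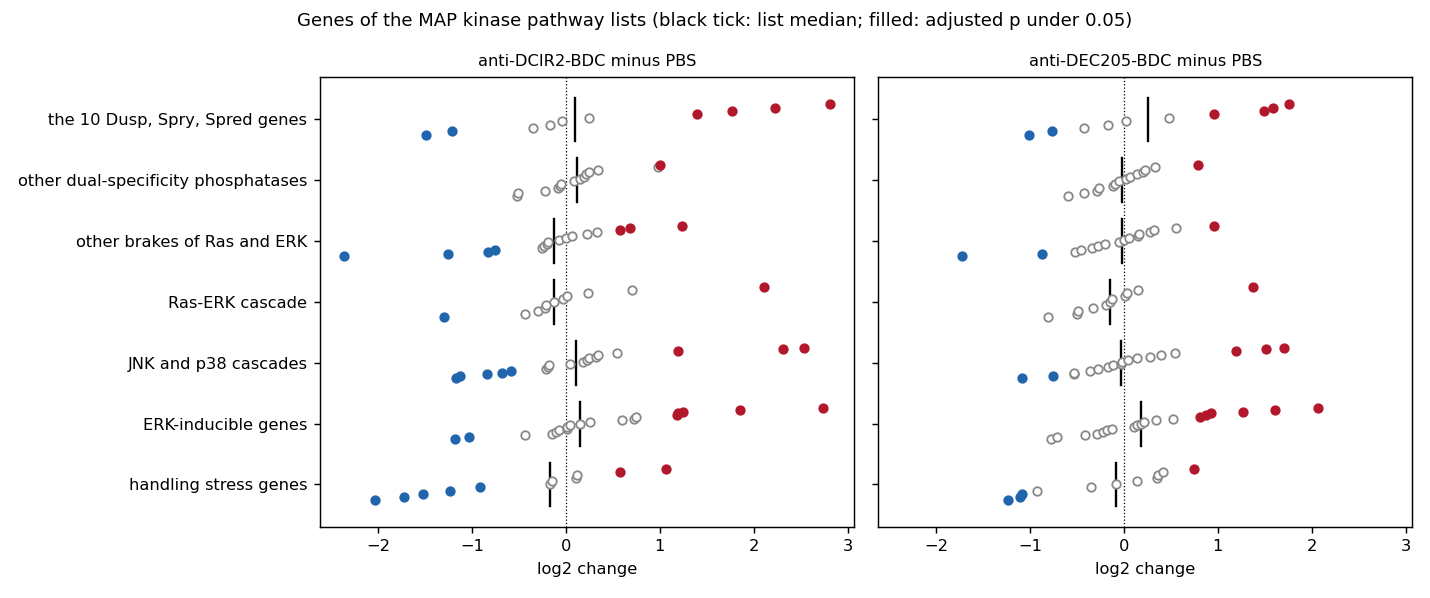
Log2 change (horizontal axis) of each gene in the lists of the MAP kinase pathways, for anti-DCIR2-BDC minus PBS and anti-DEC205-BDC minus PBS; filled red points rose, filled blue points fell, open grey points did not pass, and black ticks are list medians. Every list but the further dual-specificity phosphatases has filled points on both sides of 0 after anti-DCIR2-BDC, and the list medians lie near 0.

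**Figure D4:**
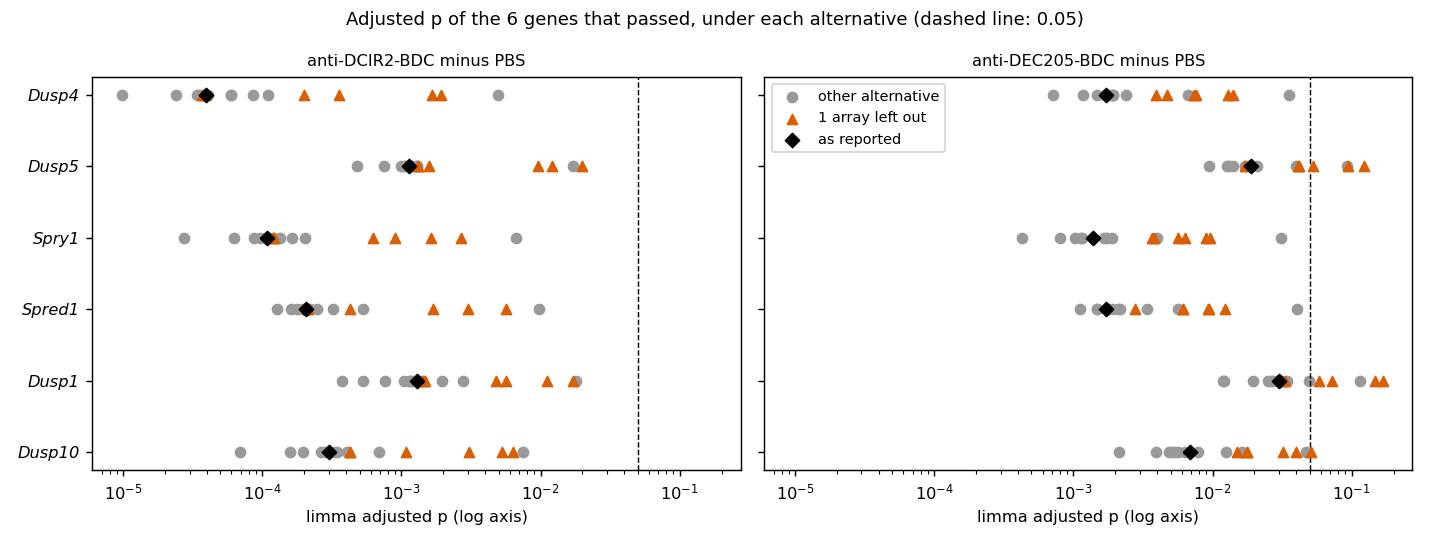
Limma adjusted p (horizontal log axis) of the 6 called genes as reported (black diamonds), with 1 array left out (orange triangles) and under the other alternatives (grey circles), against the 0.05 threshold (dashed). After anti-DCIR2-BDC all points lie left of the line, and after anti-DEC205-BDC those of Dusp5, Dusp1 and Dusp10 cross it.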

How the data were processed

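RNA from sorted T cells was hybridised to 6 arrays. Per the labels' protocols, the input of 5 ng was amplified with the NuGen Ovation pico system, which can add noise for dim probe sets. The deposited log2 values were produced by the authors with RMA, as the series' design text states, and the submitters' processing notes name Partek; its version and the genome build were not given in the sources used here. Columns were used as deposited, and their distributions were not identical. Of 35556 probe sets, 21789 named 1 symbol in the platform annotation, covering 19938 genes; dim genes were kept. Precision is limited by the number of arrays: 95% intervals extended a median of 0.388 log2 units from the estimate.

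The fit used limma 3.58.1 under R 4.3.3, with a mean for each group, all 6 arrays, a variance trend, two-sided tests and Benjamini-Hochberg adjustment over all genes (threshold 0.05), and was tested on simulated data. The limma p-values set each difference of group means against the spread between arrays of a group, moderated over all genes. As the number of mice for each array is not given, how far this spread reflects variation between mice is unknown. The 10 genes and all lists were chosen with earlier results of these data known. All 10 were named, with up to 4 called genes of largest change per pathway list and comparison, and the 3 genes most correlated with the largest rise and fall; Nf1, Spry4, Egr1, Fos, Junb and values given for the second antibody were added after they were seen. The alternatives were other scalings (quantile, median), filters on dim genes, other choices of probe set, other variance settings, array weights, only the 4 arrays compared, a replicate block and each array left out; genes added after they were seen, and second-antibody values outside the naming rule, were not recomputed under them. Promoter windows came from RefSeq (GRCm38.p6) and describe the reference, not these mice.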

Additional observations from a re-analysis of the deposited data

Results flagged for a closer look

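Dusp6 stood out because both of its antibody groups lay on opposite sides of PBS in every array. The anti-DCIR2-BDC arrays (8.33 and 8.10) were below and the anti-DEC205-BDC arrays (8.85 and 8.88) above the PBS arrays (8.39 and 8.37). The difference between the antibodies was -0.65 on the log2 scale and did not pass (limma adjusted p = 0.256, 95% interval -1.04 to -0.25, range of adjusted p 0.135 to 0.72 over the alternatives). With 2 arrays a group, no test for single outlying arrays was made.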

How the results depend on the processing

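Of the 12 calls among the 10 genes, 9 held under every alternative run for them, and the others were those of Dusp1, Dusp5 and Dusp10 after anti-DEC205-BDC; no called change turned its sign. Leaving out 1 array gave 3 to 6 called members after anti-DEC205-BDC (3 without PBS array 1), 6 after anti-DCIR2-BDC and 0 between the antibodies. The same gave 997 to 1367 genes called after anti-DEC205-BDC (1013 without PBS array 1, 1131 without anti-DEC205-BDC array 1, 997 without array 2), 2090 to 3637 after anti-DCIR2-BDC (2285 without its array 1, 2090 without its array 2) and 0 to 27 between the antibodies. Testing every probe set gave 694 genes after anti-DEC205-BDC and 0 between the antibodies. There the count of 4 became 7 and 9 without the dimmest 30% and 50% of genes, and 0 with no variance trend. Testing every probe set also lost calls after anti-DEC205-BDC whose loss is not given above. They were Map2k6, Egr3, Trib1, Klf6, Btg2, Atf3, Zap70, Trat1, Dusp12, Ly75, Cd14 and Pecam1 (limma adjusted p = 0.0682 to 0.175). After anti-DCIR2-BDC it lost Trib1, Cd4 and Socs3 (limma adjusted p = 0.0513 to 0.139). Uncalled changes turned sign for Dusp2, at -0.05 with quantile normalization after anti-DEC205-BDC and 0.06 with median centring after anti-DCIR2-BDC. With 1 array left out, Dusp2 ranged from -0.30 to 0.35 after anti-DEC205-BDC, from -0.37 to 0.28 after anti-DCIR2-BDC and from -0.22 to 0.08 between the antibodies. Spred2 ranged from -0.52 to 0.18 after anti-DEC205-BDC, and Spry2 from -0.71 to 0.01 after anti-DCIR2-BDC and from -0.28 to 0.44 between the antibodies. The cause of these turns was not tested. With the replicate number as a block, 6, 6 and 0 members and 3885, 2069 and 2 genes were called for anti-DCIR2-BDC against PBS, anti-DEC205-BDC against PBS and the antibodies; equal numbers deviated together at r = 0.0714 to 0.145, so the labels' numbers were not taken as pairs, although array 1 exceeded array 2 in every group for the handling genes and Dusp1. Of 53 calls named for other genes, 29 held under every alternative.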
